A study of Bos taurus with 8 samples.

Results

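The interleukin-1 (IL-1) family is a set of cytokines and receptors that surface epithelia use to signal injury and infection. IL-1α and IL-18 are made and held by keratinocytes, IL-33 is kept in cell nuclei as an alarm signal, and the inflammasome enzyme caspase-1 cuts pro-IL-18 and pro-IL-1β into their active forms. IL-1α and IL-1β act on the receptor IL-1R1 together with its accessory chain IL-1RAP. The receptor antagonist (gene IL1RN) occupies IL-1R1 without signalling, and IL-1R2 is a decoy receptor that binds the ligands and passes on no signal. The rumen wall is lined by a stratified squamous epithelium, whose keratinocytes meet the contents of the rumen.

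The genes described are 8 partners and receptors of this family, IL1A, IL18, IL33, IL1RN, IL1R1, IL1R2, IL1RAP and CASP1, chosen by name and looked up on a bovine expression array through RefSeq accessions. Of the 8 genes, 5 were matched to a probe: IL1A (NM_174092), IL18 (NM_174091), IL33 (NM_001075297), IL1RN (NM_174357) and IL1R2 (NM_001046210). Each had 1 probe with 2 spots, out of 21475 probes and 7788 named genes in all. The other 3, the signalling receptor IL1R1, its accessory chain IL1RAP and the protease CASP1, matched no probe and are absent from what follows. A probe under a replaced accession could not be linked, so the array itself may still hold probes for them. The probes of IL1A, IL18, IL1RN and IL1R2 were well above background on 8 of 8 arrays, as judged by the scanner software, and that of IL33 on 0 of 8. IL1B, the partner ligand, enters only as a reference for IL1RN.

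RNA came from rumen papillae of 4 rumen-cannulated lactating Holstein cows in a crossover of 2 diets and 2 periods, taken on day 21 of a period and 4 h after the morning feed. The low-concentrate diet (LC) held 40% concentrate on a dry matter basis and the high-concentrate diet (HC) held 70%. Cows 1 and 2 received LC in the first period and HC in the second, cows 3 and 4 the reverse, so that each diet had 4 arrays and each cow served on both diets. All 4 arrays of a period shared 1 slide, so period and slide cannot be told apart, and the labels give no age. Signals are log2 values after quantile normalization between arrays, and a level is never compared between probes, since probes differ in brightness for reasons other than abundance.

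The arrays were of like quality: 16504 to 17427 probes per array were well above background, the median signal was 92.1 to 132 and no spot was saturated. Keratinocyte markers were present, with KRT14, KRT6A, DSP, PKP1, SFN and IVL well above background on all 8 arrays and TP63 on none. The mean log2 signal of these 6 genes was 16.27 to 16.75 on LC and 16.47 to 16.67 on HC. Macrophage, T cell, fibroblast and smooth muscle markers were also measured, so the papillae were a mixed tissue. In such tissue, fewer cells of a type and less RNA per cell cannot be told apart.

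The question asked of each gene was whether its mRNA differed between the diets. IL18 was lower on HC in all 4 cows, by 1.28-fold on average, while IL1A, IL1RN and IL1R2 had mean differences within 0.06 log2 of 0. A gene was called changed, by the definition of the study, at a fold change of at least 1.5 with an unadjusted p under 0.05. By this definition 0 of the 5 genes were called in limma, beside 0.922% of all 21475 probes. With the p threshold alone 1 of the 5 passed, IL18, beside 3.65% of all probes (1.8% for those lower on HC). Over all probes the smallest Benjamini-Hochberg adjusted p for diet was 0.412, so no gene on the array passed an adjusted threshold of 0.05. The median difference was -0.05 over the 4 genes with measured signal, 3 of them lower on HC, and -0.000193 over the 16030 probes with measured signal on every array, 8024 of them lower on HC.

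**Figure D1:**
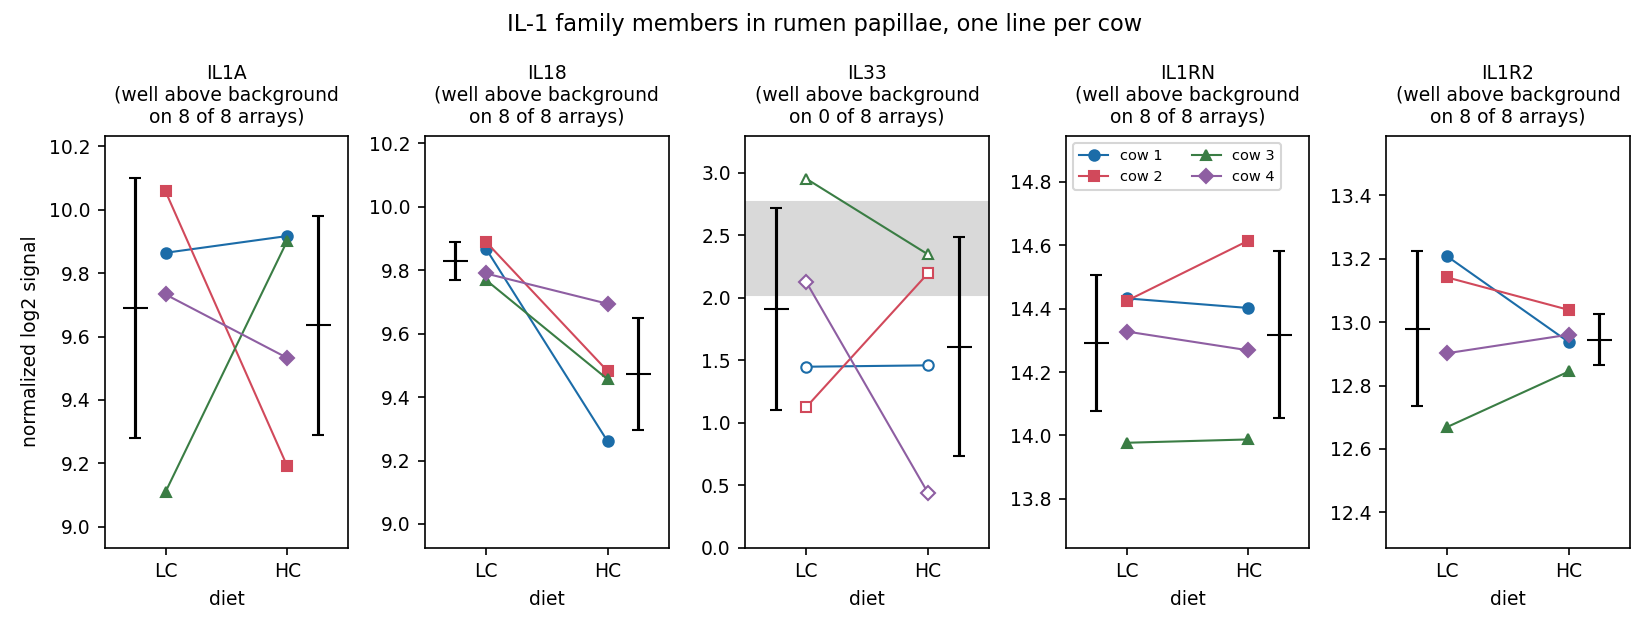
Normalized log2 signal of the 5 genes on the LC and HC diets, 1 line per cow, with the group mean ± SD (n = 4) beside the points. Open symbols mark a probe not well above background and the grey band spans the lowest well-above-background signals of the 8 arrays (2.02 to 2.77). The log2 axes have the same span in every panel but that of IL33. The IL18 lines all go down from LC to HC, and those of IL1A cross.

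IL18 encodes a cytokine that is stored in epithelial cells as a precursor and, once cut by caspase-1, stimulates interferon-γ production by T and NK cells. Its log2 signal on LC was 9.87, 9.89, 9.77 and 9.79 in cows 1 to 4, and on HC it was 9.26, 9.48, 9.46 and 9.69 in the same order. The groups did not overlap, since the highest HC value, in cow 4, lay below the lowest LC value, in cow 3. Among the same 16030 probes, 0.63% had every HC array below every LC array. The LC arrays were close together (9.83 ± 0.06, SD, n = 4) and the HC arrays were spread more widely (9.47 ± 0.18, SD, n = 4).

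The log2 difference of IL18 between HC and LC was -0.36 (standard error 0.10, limma), with a 95% confidence interval of -0.60 to -0.11. On the linear scale the HC level was 0.781 of the LC level, with an interval of 0.659 to 0.926. The unadjusted p was 0.0117, rank 170 of the 21475 probes, and the adjusted p was 0.9995. The exact two-sided permutation p over the 4 arrays of each diet was 0.0286, the smallest that this design allows.

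The size of the IL18 difference varied among the cows. Within cows it was -0.61, -0.41, -0.31 and -0.10 in cows 1 to 4, and the exact sign-flip p over the 4 cows was 0.125, again the smallest possible. With cow and period as blocks, which follow the pairing of the design, the limma p was 0.0170. By period, and so by slide, the difference was -0.30 in period 1 (cows 3 and 4 on HC, cows 1 and 2 on LC) and -0.41 in period 2. Of all probes, 91.5% had a smaller absolute difference between the diets.

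IL18 had an unadjusted limma p under 0.05 in all 20 alternative analyses, but few of them could change its direction. Those that changed only the model terms, the cow block, the moderation or the set of probes gave the same -0.36 by construction. Leaving out an array could not turn the sign, since the groups did not overlap. With other signal values the difference was -0.36 (75th percentile scaling), -0.29 (normexp) and -0.36 (deposited table). Over the 20 alternatives the log2 difference of IL18 lay between -0.42 and -0.29 and the p between 0.00621 and 0.0404. None of these estimates reached 1.5-fold, and leaving out each array in turn gave -0.42 to -0.30. On the same arrays the mean signal of the 6 keratinocyte markers differed between the diets by 0.00 log2, that of the 5 T and NK cell markers by 0.12 and that of the 4 macrophage and dendritic cell markers by 0.20, with ITGAM on 0 arrays. Gene by gene, the 6 keratinocyte markers ran from -0.10 to 0.17. No gene of the 8 marker lists had an unadjusted p under 0.05 for diet, beside 3.65% of all probes. With a share this low, that does not set the marker lists apart. The part of these cell types in the IL18 value was not tested.

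**Figure D2:**
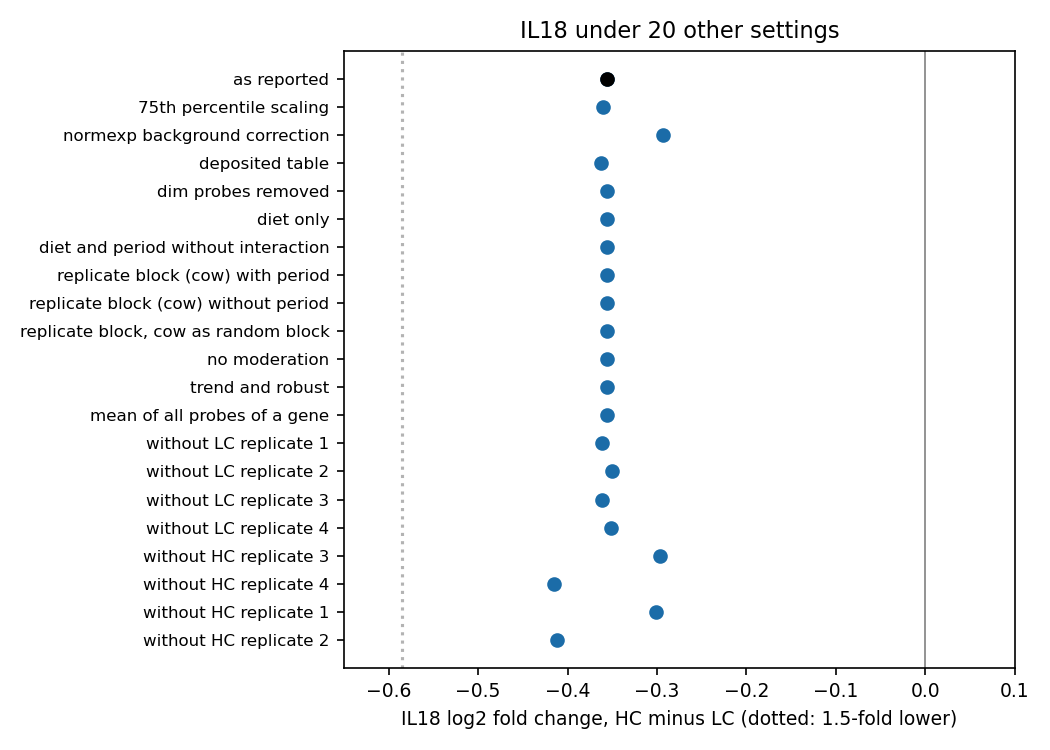
Log2 fold change of IL18 (HC minus LC) as reported and under 20 alternative analyses, 1 row each. The dotted line marks 1.5-fold lower on HC and the solid line no difference. All estimates lie between the lines, from -0.42 to -0.29. Rows that changed only the model, the moderation or the set of probes repeat the reported value by construction.

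IL1A encodes IL-1α, a ligand that is active without caspase-1 and is released from damaged keratinocytes. On LC its log2 signal was 9.86, 10.06, 9.11 and 9.73 in cows 1 to 4, and on HC it was 9.92, 9.19, 9.90 and 9.53. The groups overlapped over nearly their whole range, with the lowest value on LC in cow 3 and the highest on LC in cow 2. Means were 9.69 ± 0.41 on LC and 9.64 ± 0.35 on HC (SD, n = 4 each), a log2 difference of -0.06 (standard error 0.22, limma p = 0.811, exact permutation p = 0.83).

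Between the diets IL1A moved within cows, in opposite directions. The difference between HC and LC was 0.05, -0.87, 0.79 and -0.20 in cows 1 to 4, so that cow 2 was lower and cow 3 higher on HC by more than 1.5-fold. The 4 cow means lay within 0.38 of each other, a smaller range than these shifts. The 95% interval of the diet effect ran from 0.662 to 1.40 times the LC level, which is as close as 4 arrays per diet came. The sign itself was not stable, as leaving out each array in turn gave -0.24 to 0.13.

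IL33 encodes a nuclear alarm cytokine of barrier cells. Its probe was at background: both spots were well above background together on 0 of 8 arrays, 1 of the 2 spots was so on 4 arrays, and neither was on the other 4. The log2 signal ranged from 1.13 to 2.95 on LC and from 0.44 to 2.35 on HC. The lowest signals that were well above background lay at 2.02 to 2.77. No fold change is given, and the values hold only that IL33 was not well above background with this probe on either diet.

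IL1RN encodes the receptor antagonist, an abundant product of squamous epithelium. Its log2 signal was 14.43, 14.42, 13.98 and 14.33 on LC and 14.40, 14.61, 13.99 and 14.27 on HC, in cows 1 to 4. The groups overlapped, and in both of them cow 3 was the lowest. The means were 14.29 ± 0.21 on LC and 14.32 ± 0.26 on HC (SD, n = 4 each). Their log2 difference of 0.03 (standard error 0.13, limma p = 0.833, exact permutation p = 0.914) changed sign with 75th percentile scaling and with normexp background correction. The 95% interval was 0.825 to 1.26 times the LC level.

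IL1R2 encodes the decoy receptor. On LC its log2 signal was 13.21, 13.14, 12.67 and 12.90 in cows 1 to 4, and on HC it was 12.94, 13.04, 12.84 and 12.96. The HC values lay wholly within the range of the LC values. Means were 12.98 ± 0.25 on LC and 12.94 ± 0.08 on HC (SD, n = 4 each), a log2 difference of -0.03 (standard error 0.10, limma p = 0.730, exact permutation p = 0.83). The 95% interval was 0.830 to 1.15 times the LC level, and within cows the difference was -0.27, -0.10, 0.18 and 0.06.

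The cow means of both inhibitors spanned more than the change of diet within any cow. For IL1RN the cow means were 14.42, 14.52, 13.98 and 14.30, a range of 0.54 log2, while the change of diet within a cow was at most 0.19. For IL1R2 the cow means were 13.07, 13.09, 12.76 and 12.93, a range of 0.33, and the change within a cow was at most 0.27. IL18 had the reverse order, with cow means within 0.18 of each other and changes within cows of up to 0.61.

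In this crossover the interaction of diet with period equals a comparison of cows 1 and 2 with the other pair of cows. IL1RN was higher in cows 1 and 2, by 0.33 log2 (standard error 0.13), with an unadjusted limma p of 0.0389 and an adjusted p of 0.469. Its 4 values in cows 1 and 2, from 14.40 to 14.61, lay above all 4 in cows 3 and 4, from 13.98 to 14.33. IL1R2 was higher in the same cows by 0.24 (standard error 0.10), with an unadjusted limma p of 0.0476 and an adjusted p of 0.485, and there the sets overlapped slightly (12.94 to 13.21 against 12.67 to 12.96). These were 2 of the 5 genes, beside 10.2% of all 21475 probes at an unadjusted p under 0.05, and 0 of the 5 also reached 1.5-fold, beside 2.93%.

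The contrast lies between cows, of which there were 2 on each side, while that fit takes the 2 arrays of a cow as separate. On cow means the limma p was 0.0997 for IL1RN and 0.119 for IL1R2, so 0 of the 5 genes passed, beside 5.96% of all probes. Seen as an interaction, the diet difference of IL1RN was -0.30 in period 1 and 0.36 in period 2, and that of IL1R2 was -0.27 and 0.20. The mean signal of the 4 measured macrophage and dendritic cell markers (of 8 listed) was 7.59 to 8.24 in cows 1 and 2 and 7.32 to 7.71 in cows 3 and 4, and that of the 6 keratinocyte markers was 16.57 to 16.75 and 16.27 to 16.67. Smooth muscle markers, 5 of 5 measured, were at 11.25 to 11.72 and 11.16 to 11.24. Other lists went the other way: the 2 measured endothelium markers (of 5 listed) were at 8.27 to 8.48 in cows 1 and 2 and 8.41 to 8.89 in cows 3 and 4, and the mean of the 6 fibroblast markers was lower in cows 1 and 2 by 0.11 log2 (difference -0.11). The part of these cell types in the IL1RN and IL1R2 values was not tested. For period alone, 0 of the 5 genes had an unadjusted p under 0.05 in limma, beside 12.3% of all probes, and so 0 also reached 1.5-fold, beside 3.86%.

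**Figure D3:**
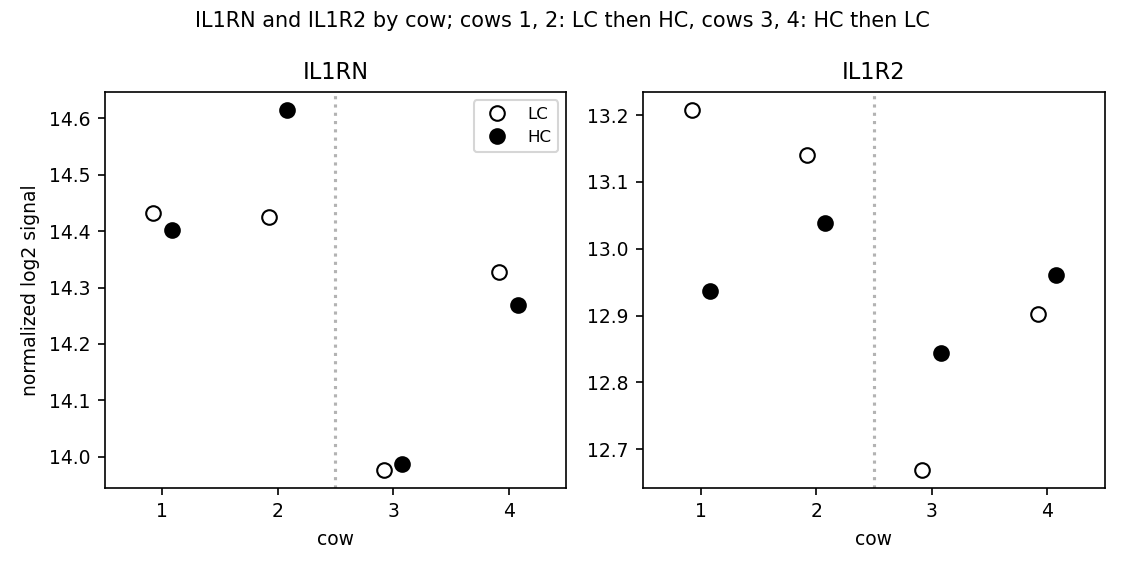
Normalized log2 signal of IL1RN and IL1R2 by cow, open circles for LC and filled circles for HC. The dotted line separates cows 1 and 2 (LC first) from cows 3 and 4 (HC first). IL1RN is higher in cows 1 and 2 on every array, and IL1R2 overlaps slightly between the pairs of cows.

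The balance of antagonist and ligand was compared through differences of log2 signals on the same array, in 2 pairs. IL1RN relative to IL1A differed between HC and LC by 0.08 (exact permutation p = 0.83, the same after adjustment over the pairs), with -0.08, 1.06, -0.78 and 0.14 within cows 1 to 4. Taken alone, IL1RN differed by 0.03 log2 and IL1B by 0.67 (HC minus LC), so the second pair holds mainly the difference of IL1B. On average IL1RN relative to IL1B was lower on HC (HC minus LC -0.64), with -1.34, -1.03, -0.57 and 0.38 in cows 1 to 4. It was lower in 3 of 4 cows, but the spread among cows was of the same order, and the exact permutation p was 0.229 (0.457 after adjustment). The size depended on the background treatment and on single arrays: it was -0.25 with normexp (exact permutation p = 0.0857), -0.38 without HC cow 2 and -1.05 without HC cow 4. The decoy IL1R2 could not be set against the signalling receptor IL1R1, for which no probe was matched.

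In the RefSeq gene table IL1A and IL1RN lie on the chromosome of IL1B, with 1 protein-coding gene between IL1A and IL1B and 8 between IL1A and IL1RN. IL1R2 lies on the same chromosome next to IL1R1, with 239 protein-coding genes between it and IL1A. IL33 and IL1RAP share a chromosome with none of the other members. IL18 is on the chromosome of CASP1, with 87 protein-coding genes between them. Over the 8 arrays, 2 per cow, Pearson's r was 0.78 between the inhibitors IL1RN and IL1R2, 0.49 between IL1A and IL1R2 and 0.11 between IL1A and IL1RN. IL18 had an r of -0.03 with IL1RN, 0.02 with IL1A and 0.27 with IL1R2. These values describe 8 arrays of 4 cows, which are not independent.

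Of 6465 named genes measured on every array, those with the pattern most like each gene over the 8 arrays were as follows. For IL18 they were ZNF622 (r = 0.92) and TUBA1D, an alpha tubulin (r = 0.90), whose own log2 differences between HC and LC were -0.18 and -1.13. For IL1A they were UCHL3, a ubiquitin hydrolase (r = 0.95), and CDC42SE1 (r = 0.94). For IL1RN they were COPZ1, a subunit of the COPI coat (r = 0.98), and RFC3, a subunit of replication factor C (r = 0.97). For IL1R2 they were the small GTPase RHOD (r = 0.98) and RIC8A (r = 0.97). Apart from TUBA1D and ZNF622, the diet differences of these genes lay between -0.11 and 0.03. The genes were picked by their pattern on these same arrays, so likeness to a member in diet difference follows from the choice. The r that the best of 6465 genes would reach by chance over 8 arrays was not computed.

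The rest of the pathway was followed through 4 gene lists of 67 genes. Of these, 35 were matched to a probe and 28 were measured, meaning well above background on every array. In limma 0 of the 35 were called changed for diet, beside 0.922% of all probes, and 0 had an unadjusted p under 0.05, beside 3.65%. With shares this low over all probes, counts of 0 among 35 do not set these lists apart. Of the 28, 20 were higher and 8 lower on HC, with a median log2 difference of 0.11. Of all 16030 probes measured on every array, 8006 were higher and 8024 lower. The genes of a list share the same 8 arrays and are not independent, so these directions were not tested.

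The other ligands and receptors of the family had 3 of 14 genes measured, IL36RN, IL1RL2 and SIGIRR. The largest difference was that of IL36RN, the antagonist of the IL-36 receptor, at 0.13 (standard error 0.19, limma p = 0.530, exact permutation p = 0.657). In RefSeq 1 protein-coding gene separates it from IL1RN. The signal transduction list had 10 of 16 genes measured, 7 higher and 3 lower, with a median of 0.06. Its largest difference was that of IRAK3, a kinase-like inhibitor of IL-1 receptor signalling, at 0.24 (standard error 0.18, limma p = 0.227, exact permutation p = 0.314), with all 4 cows higher on HC.

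The inflammasome and processing list covers sensors, adaptors and proteases that act before IL-1β and IL-18 are released. Of its 21 genes, 8 had a matched probe and 6 were measured on all arrays, 3 higher and 3 lower, with a median of 0.01. NLRP3 was well above background on 0 arrays and CASP4 on 1. The largest difference was that of NLRC4, an inflammasome component, at 0.18 (standard error 0.14, limma p = 0.252, exact permutation p = 0.171), higher in 4 of 4 cows.

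Of the IL-1 responsive genes 9 of 16 were measured on all arrays, 8 higher and 1 lower on HC, with a median of 0.28. Beside them, 8006 of the 16030 probes measured on every array were higher on HC. For each of the 9 genes the direction differed among the cows. The inducible CCL20, CSF3 and LIF were well above background on 0 arrays. The largest difference was that of CXCL8, the neutrophil-attracting chemokine. Its log2 signal was 5.23 to 6.74 on LC (6.02 ± 0.63, SD, n = 4) and 5.59 to 7.90 on HC (6.83 ± 1.14, SD, n = 4), with overlapping groups. The difference was 0.81 (standard error 0.34, limma p = 0.0519, exact permutation p = 0.286), and within cows it ran from -1.15 to 1.78. Its limma p fell under 0.05 with 75th percentile scaling (0.0419), without dim probes (0.0394) and with trended and robust moderation (0.0439). It did so too without LC cow 4 (0.00113, log2 difference 1.19). In the other alternatives CXCL8 was not called changed, and these include the fits with cow as a block, which follow the pairing of the design.

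**Figure D4:**
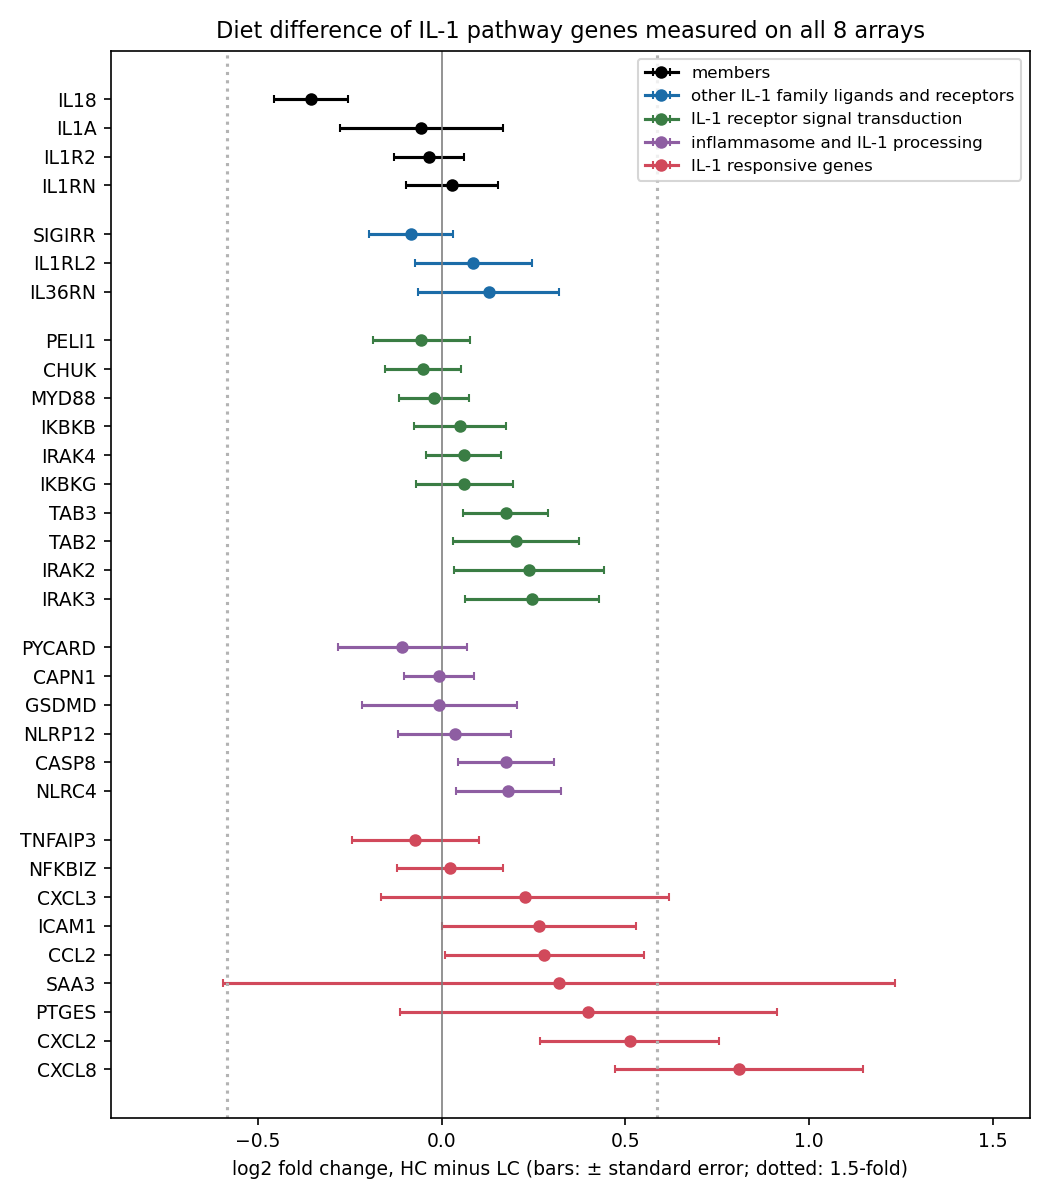
Log2 fold change (HC minus LC) ± standard error from limma for the 4 measured members and the 28 measured genes of the pathway lists, grouped by list. Dotted lines mark 1.5-fold in either direction. IL18 stands to the left of 0 at -0.36, and CXCL8 has the largest difference, 0.81, with a wide error.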

How the data were processed

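RNA of rumen papillae was hybridized in a single colour, 1 sample per array and none pooled, and groups were taken from the labels, which name diet, cow and period. Per array the authors deposited scanner output (Feature Extraction 10.7.3.1) with a background-subtracted intensity per spot, and a table of quantile-normalized log2 values, in which the columns of cows 1 and 2 were exchanged on both diets. For the 4 measured members the deposited log2 values, with that exchange, lay within 0.0185 of those used here. One deposited IL33 value lay 1.64 from its scanner value.

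Control and outlier spots (0 to 13 per array) were left out, and log2 intensities were quantile-normalized with limma 3.58.1 in R 4.3.3. Spots of a probe were averaged, and a probe counted as well above background where all its spots were. Of 10176 probes with a RefSeq accession, 8297 were named through the RefSeq gene table. No positions are given, because the array annotation and this table are of different builds.

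Limma was run on all 21475 probes with terms for diet, period and diet by period (4 residual and 2.26 prior degrees of freedom), with Benjamini-Hochberg adjustment over all of them. Exact two-sided permutation tests used scipy 1.17.1. The number of arrays limits the precision.

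The deviations from the diet mean correlated between the arrays of a cow (r = 0.285, 0.298, 0.467 and 0.113 in cows 1 to 4, across 16030 probes, which are not independent), against -0.237 to 0.185 between cows. The pairing by cow comes from the labels and the crossover design.

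The members and the gene lists were chosen with earlier results of these data known. Named were all members with a probe, IL1B as a partner, the gene of each pathway list with the largest difference among those measured on all arrays, and the 2 genes most like each member. Genes named as markers or as not above background are outside this rule.

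Alternatives were 75th percentile scaling, normexp background correction (offset 50, on median spot signals, since the planned mean signal column was not among those used here), the deposited table, a filter on dim probes, other model terms, cow as a block, other moderation of the variance, the mean of a gene's probes, cow means, and leaving out each array.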

Additional observations from a re-analysis of the deposited data

Results flagged for a closer look

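The diet difference of IL1RN was of opposite sign in the periods, -0.30 in period 1 and 0.36 in period 2, and the interaction of diet with period had an unadjusted limma p of 0.0389. The same held for IL1R2, with -0.27 and 0.20 and a p of 0.0476. Neither passed adjustment over all probes (0.469 and 0.485), and on cow means the p values were 0.0997 and 0.119. The p ranged from 0.0188 to 0.114 for IL1RN and from 0.0265 to 0.123 for IL1R2 as each array was left out. Since cows 1 and 2 took the diets in the opposite order to cows 3 and 4, the interaction, the order of feeding and the cows themselves cannot be told apart. Of the 4 measured genes (IL1A, IL18, IL1RN and IL1R2), none had an array that stood apart from the other 3 of its diet by Dixon's test.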

How the results depend on the processing

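The difference of IL18 had an unadjusted limma p under 0.05 in all 20 alternatives, most of which could not change its sign. With the pairing by cow as a replicate block the p was 0.0170 with period, 0.0262 without it and 0.00802 with cow as a random block, at the same difference of -0.36, and the block changed no call of a member. The number of members called for diet was 0, and 0 to 1 as each array was left out (IL33 without HC cow 3, although at background), with 1 to 2 having a p under 0.05. The period count was likewise 0 to 1 and the interaction count 0 to 1 (IL33 without HC cow 3 and without HC cow 4), and the interaction count was 1 with the deposited table (IL33). The 2 members with an interaction p under 0.05 became 1 without moderation, 0 on cow means, 3 with the deposited table (IL33 added) and 0 to 2 as each array was left out. It was 0 without LC cow 1, LC cow 2, LC cow 3, HC cow 2 or HC cow 3. The number of pathway genes called, 0 as reported, was 1 with 75th percentile scaling, without dim probes and with trended and robust moderation (CXCL8), 1 with the deposited table (NLRP3, at background) and 0 to 1 as each array was left out (CXCL8 without LC cow 4, PTGS2 without HC cow 1, CXCL2 without HC cow 2). IL1RN turned to -0.000461 with 75th percentile scaling and -0.0146 with normexp. Leaving out each array gave -0.0599 to 0.115 for IL1RN, -0.24 to 0.13 for IL1A, -0.093 to 0.0234 for IL1R2, -0.16 to 0.28 for IL1RN relative to IL1A (negative without HC cow 2) and -1.05 to -0.38 for IL1RN relative to IL1B, which was -0.25 with normexp. The cause of these changes was not tested. Signal over background limits IL33, which gave no usable value, and 4 arrays per diet limit the rest.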
